A study of Mus musculus with 6 samples.

Results

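The genes described here encode the folding machinery of the endoplasmic reticulum (ER) and the unfolded protein response (UPR) that controls it, and were measured in mouse pancreatic islets with and without pregnancy. Members were a fixed list of 38 gene symbols, and all 38 were found among the 18193 genes that the array's platform annotation names through a single symbol. They had 89 of the array's 45037 probe sets (short sets of probes for the same transcript), control probe sets left aside, and 86 of these were bright enough to be tested. For each gene the brightest probe set, by its mean of log2(signal + 16) across the 6 arrays, stands for the gene, and all 38 of these were tested.

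Collagenase digestion gave islets of mice that were not pregnant (3 arrays, labelled 0 dpc, days post coitum) and of mice at 12.5 dpc of pregnancy (3 arrays). The labels give no strain, age, genotype or treatment other than pregnancy, and nothing in them ties the 3 arrays of a group to different animals. The p-values therefore reflect the scatter among these samples alone, and part or all of it may be technical. The study asked what makes islet cells divide in pregnancy. Values are MAS5 signals, scaled intensities in arbitrary units, and a signal depends on a gene's probes as well as on its transcript, so signals of different genes are not set against each other as transcript levels.

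Proteins that enter the secretory pathway fold in the ER with the help of chaperones and disulfide isomerases, and those that fail are exported and destroyed by ER-associated degradation (ERAD). When unfolded protein builds up, 3 sensors of the ER membrane respond. IRE1 (encoded by Ern1) splices the mRNA of the transcription factor XBP1, ATF6 is cut to release a transcription factor, and PERK (encoded by Eif2ak3) slows translation while favouring that of ATF4, which induces CHOP (encoded by Ddit3). XBP1 and ATF6 are known for inducing chaperones, isomerases and ERAD genes, and the ATF4-CHOP branch for amino acid, redox and death-related genes. Beta cells make insulin in large amounts and depend on this system. An expression array reads total mRNA, so splicing of Xbp1, cleavage of ATF6 and phosphorylation by PERK are not measured here.

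ATF6 and XBP1 are known to act through the ER stress response element (ERSE), a CCAAT box and a CCACG box held 9 bases apart. The element joins many of the chaperone genes below, so it is shown before the values. RefSeq promoter windows of build GRCm38.p6, 250 bases before to 50 bases after each start, were present for 33 of the 38 members. The motif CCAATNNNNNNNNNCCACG, searched on both strands, was found in 10 of 24 windows (41.7%) of folding, isomerase and ERAD genes and in 37 of 27025 genes (0.137%) in the whole table. The stretches below run along the element with 20 bases on either side, the 2 boxes in capitals. The element was found in 4 of 15 windows of genes that were higher in pregnancy and in 6 of 9 of genes that did not pass. The first 4 stretches belong to the former, the next 4 to the latter. Creld2, Ero1b and a further element of Hsp90b1, 212 to 194 bases before its start, are not shown.

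Dnajc3 (chr14:118937807-118937865, + strand): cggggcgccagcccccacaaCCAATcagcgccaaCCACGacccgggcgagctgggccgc
Pdia6 (chr12:17266471-17266529, + strand): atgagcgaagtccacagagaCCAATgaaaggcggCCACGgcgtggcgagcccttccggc
Derl3 (chr10:75893222-75893280, - strand): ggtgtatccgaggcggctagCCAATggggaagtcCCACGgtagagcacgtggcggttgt
Syvn1 (chr19:6046512-6046570, + strand): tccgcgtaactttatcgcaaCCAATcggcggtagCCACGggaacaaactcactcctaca
Hspa5 (chr2:34772005-34772063, + strand): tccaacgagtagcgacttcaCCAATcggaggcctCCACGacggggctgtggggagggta
Hsp90b1 (chr10:86705513-86705571, + strand): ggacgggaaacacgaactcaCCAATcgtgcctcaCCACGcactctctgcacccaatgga
Calr (chr8:84847055-84847113, + strand): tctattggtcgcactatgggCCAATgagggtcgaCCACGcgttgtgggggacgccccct
Canx (chr11:50325780-50325838, - strand): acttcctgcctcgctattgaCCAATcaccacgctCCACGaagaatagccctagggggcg

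The element lay 105 to 87 bases before the start of Dnajc3, 98 to 80 before that of Pdia6 and 65 to 47 before that of Hspa5. The whole 250 bases before the start are given for a gene that rose, Dnajc3, and for Hspa5, which encodes the chaperone BiP and did not pass, with the 2 boxes again in capitals.

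Dnajc3 (chr14:118937682-118937931, + strand): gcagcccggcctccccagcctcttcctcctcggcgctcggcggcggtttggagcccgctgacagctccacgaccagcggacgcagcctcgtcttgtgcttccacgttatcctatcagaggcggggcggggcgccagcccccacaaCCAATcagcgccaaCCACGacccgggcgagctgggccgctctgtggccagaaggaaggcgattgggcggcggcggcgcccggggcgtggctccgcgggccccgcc
Hspa5 (chr2:34771840-34772089, + strand): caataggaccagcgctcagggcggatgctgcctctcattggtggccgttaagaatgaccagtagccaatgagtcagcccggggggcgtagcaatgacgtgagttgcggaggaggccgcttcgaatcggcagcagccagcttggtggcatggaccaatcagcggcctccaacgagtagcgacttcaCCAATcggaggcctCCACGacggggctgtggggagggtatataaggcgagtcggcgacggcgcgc

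The related element ERSE-II, ATTGGNCCACG, matched in Dnajb11 and Herpud1 and in 0.0444% of all genes in the table. Neither gene had an ERSE as well, and with either element counted 12 of the 24 folding, isomerase and ERAD genes had a match. The 8-base UPR element TGACGTGG, which shares the CCACG letters with both elements on the other strand, matched in 0 of 33 members and 0.714% of all genes. The C/EBP-ATF response element TGATGNAA, a known site of ATF4, matched in 3 of 33 members (9.09%), namely Chac1, Trib3 and Herpud1, against 4.51% of all genes. No ERSE or ERSE-II matched in the 6 ATF4-CHOP genes or the 3 sensors and transcription factors that have a window. A match describes letters, not binding.

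In pregnancy, 19 of the 38 genes were higher and 1 was lower (limma, Benjamini-Hochberg adjusted p under 0.05). Over all 12914 genes tested in the same fit, 6.1% were higher and 5.79% lower. Among the 6017 genes at least as bright as the dimmest member, 9.87% were higher and 8.96% lower. The largest rise was that of the sensor gene Ern1, with a ratio of 1.86, followed by the BiP co-chaperone Dnajb11 (1.70) and the ERAD gene Edem2 (1.69). The members that rose included 7 of 9 ERAD genes, 6 of 12 folding chaperones and co-chaperones, 3 of 6 disulfide isomerases and oxidases and 2 of 4 sensors and transcription factors. In the ATF4-CHOP arm 1 of 7 genes was higher and 1 lower. The groups did not overlap, pregnant above non-pregnant, in 25 of the 38 genes (13.9% of all genes tested) and pregnant below in 3 (17.9%). Over all genes tested the median log2 difference was -0.04, and over the members it was 0.28.

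**Figure D1:**
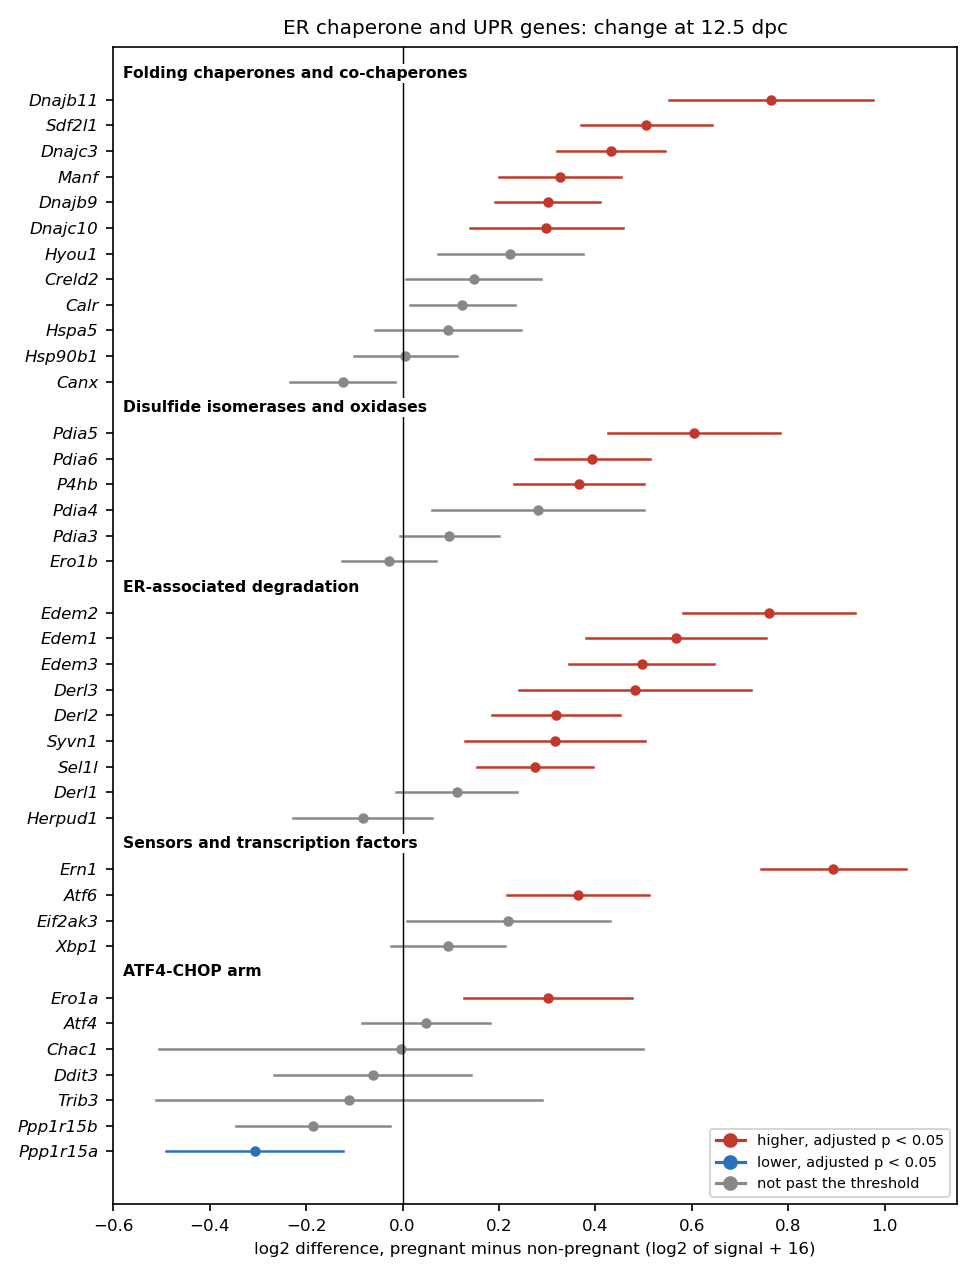
Log2 difference (pregnant minus non-pregnant, on the log2(signal + 16) scale) of the 38 genes by role, with limma's 95% confidence interval, red for higher, blue for lower and grey for not past an adjusted p of 0.05. Of the 27 folding, isomerase and ERAD genes 24 lie to the right of 0, whereas the ATF4-CHOP genes scatter around 0, with Ero1a to the right and Ppp1r15a to the left.

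These calls lean on the variance model. With the trend of variance on signal 9.57% of all probe sets passed in either direction. Without it 4 of the 38 members were higher, namely Ern1, Edem2, Pdia5 and Dnajb11, where 1.95% of all genes tested were higher in that same fit. With any 1 array left out, 15 to 20 members were higher, and 15 of the 19 passed in all 6 such fits.

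Of the 3 sensors, Ern1 changed most. Its signals were 3381, 3718 and 3194 on the non-pregnant and 6530, 6092 and 6515 on the pregnant arrays. The lowest pregnant array was thus far above the highest non-pregnant one, and the log2 difference was 0.89 ± 0.07 (SE; limma adjusted p = 9.0e-06). A second, dimmer Ern1 probe set was also higher (0.80, adjusted p = 0.027), the other 3 were dim and did not pass, and the average of the probe sets had 0.45 (adjusted p = 0.090).

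Atf6 gave 1980, 1952 and 2107 without and 2520, 2620 and 2645 with pregnancy. The groups did not overlap, and the log2 difference was 0.36 ± 0.07 (adjusted p = 0.0052). Its 2 dimmer probe sets had 0.25 and 0.29 and did not pass (adjusted p = 0.13 and 0.22). Eif2ak3, the gene of PERK, gave 1667, 1964 and 2231 against 2270, 2183 and 2335. These ranges overlap, since the lowest pregnant value lies below the highest non-pregnant one, and the log2 difference of 0.22 did not pass (95% confidence interval 0.01 to 0.43, adjusted p = 0.20).

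Xbp1, the transcription factor downstream of IRE1, gave 25099, 22885 and 22153 against 25034, 24862 and 24903. In this brightest probe set the pregnant arrays lay within the non-pregnant range. The log2 difference of total Xbp1 signal there was 0.09 (interval -0.02 to 0.21, adjusted p = 0.34). None of its 4 probe sets passed. The next brightest gave 18968, 18116 and 17327 against 21041, 20579 and 19879, so its groups were apart. Its difference was 0.18 (interval 0.06 to 0.29), with the smallest adjusted p of the 4, 0.054.

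Among the 12 folding chaperones and co-chaperones, the 4 genes of DnaJ proteins (Dnajb9, Dnajb11, Dnajc3 and Dnajc10) rose, as did Sdf2l1 and Manf, while Hspa5, the gene of BiP itself, did not pass. DnaJ proteins bind unfolded clients and stimulate the ATPase of BiP. Dnajb11 (ERdj3) gave 1891, 1711 and 2238 without and 3199, 3110 and 3602 with pregnancy. All pregnant arrays were above all non-pregnant ones, a log2 difference of 0.76 ± 0.10 (adjusted p = 4.2e-04). Sdf2l1, a partner of ERdj3 in the ER, gave 10550, 9451 and 9332 against 14356, 13156 and 14123. Its groups were also apart, with a difference of 0.51 ± 0.06 (adjusted p = 3.3e-04).

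Dnajc3, which encodes the co-chaperone P58IPK, gave 12196, 12479 and 11694 against 16678, 16600 and 15822. The difference was 0.43 ± 0.05 (adjusted p = 2.6e-04), and all 5 of its probe sets passed, with differences from 0.31 to 0.57. Dnajb9 (ERdj4), known to repress IRE1 by recruiting BiP, gave 19781, 18542 and 18940 against 23620, 24111 and 22812. Its difference was 0.30 ± 0.05 (adjusted p = 0.0025). Dnajc10 (ERdj5), a co-chaperone that reduces disulfides before degradation, gave 1840, 1672 and 1765 against 2276, 2095 and 2130. The difference of 0.30 ± 0.07 (adjusted p = 0.024) did not pass without non-pregnant replicate 2 or 3 or without any of the pregnant replicates. Its 2 dimmer probe sets had 0.29 and 0.26 and did not pass (adjusted p = 0.065 and 0.28). Manf, an ER-resident and secreted protein that beta cells need, gave 20967, 18359 and 18618 against 24882, 23833 and 23825, with a difference of 0.33 ± 0.06 (adjusted p = 0.0042).

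The other 6 chaperone genes did not pass. Hspa5 gave 35289, 36164 and 29743 without and 36527, 34295 and 36875 with pregnancy. These groups overlap, and the interval of the log2 difference ran from -0.06 to 0.25 (adjusted p = 0.48). Hsp90b1, the ER member of the HSP90 family (GRP94), gave 22058, 21808 and 20935 against 22344, 21141 and 21580. The interval was -0.10 to 0.11, so that a rise as large as that of Dnajb9 lies outside it. The 2 dimmer Hspa5 probe sets had -0.06 and -0.13 and did not pass either. For scale, the brightest probe set on each array had a signal of 51107 to 64109.

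Hyou1, a nucleotide exchange factor of BiP, gave 3697, 3237 and 3305 against 3915, 3897 and 4138. The groups were apart but the difference of 0.22 ± 0.07 had an adjusted p of 0.064, while a dimmer Hyou1 probe set passed (0.41, adjusted p = 0.024). For the lectin chaperone Calr the brightest probe set had 0.12 (adjusted p = 0.16), and both dimmer ones passed (0.28 and 0.22, adjusted p = 0.0091 and 0.032). Canx, the membrane-bound lectin chaperone, had -0.12 (adjusted p = 0.15) and its groups were apart, pregnant below. Its next probe set had 0.13 (adjusted p = 0.28), so the probe sets differ in sign. Creld2, an ER-resident disulfide protein, had 0.15 (adjusted p = 0.19).

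Disulfide isomerases make and rearrange the disulfide bonds that proteins such as insulin need. Pdia5 had the largest rise of this group. It gave 1183, 1113 and 1278 without and 1722, 1905 and 1830 with pregnancy, a difference of 0.60 ± 0.08 (adjusted p = 6.7e-04). The pregnant arrays were all above the non-pregnant ones. Pdia6, a chaperone and isomerase known to bind IRE1, gave 10677, 10194 and 9627 against 13570, 13267 and 13201. The difference was 0.39 ± 0.05 (adjusted p = 7.9e-04), but the other, dimmer probe set had -0.14 (adjusted p = 0.65) and the average of both had 0.13 (adjusted p = 0.34).

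P4hb, the classical protein disulfide isomerase, gave 15847, 13523 and 14396 against 19131, 19016 and 18148, a difference of 0.37 ± 0.06 (adjusted p = 0.0029). Its groups did not overlap. Pdia4 (ERp72) gave 2232, 1825 and 2037 against 2859, 2275 and 2301. The difference was 0.28 ± 0.10, close to that of Dnajb9 in size, but the spread was wider and the adjusted p was 0.11. Pdia3 (ERp57), the partner of the lectin chaperones, had 0.10 (interval -0.01 to 0.20, adjusted p = 0.25). Ero1b, the islet-rich oxidase that recharges the isomerases, gave 28150, 27901 and 28204 against 28100, 27099 and 27407. Its interval ran from -0.13 to 0.07.

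Of 9 ERAD genes 7 were higher, with a median log2 difference of 0.32. Among genes at least as bright as the dimmest member 9.87% were higher. The ERAD count was 5 with averaged probe sets, and 5 without non-pregnant replicate 2 or pregnant replicate 1 or 3. It was 2 with the acinar marker level as a covariate (below) and 1 without the variance trend. The EDEM proteins trim mannose from misfolded glycoproteins and so mark them for export. Edem2 gave 3083, 2444 and 2832 without and 4736, 4556 and 4838 with pregnancy. Its groups were far apart, with 0.76 ± 0.08 (adjusted p = 1.3e-04). The other Edem2 probe set was dim, at a mean signal of 55.5, and pointed down (-0.55, adjusted p = 0.41), while the average of both had 0.10 (adjusted p = 0.67). Edem1 gave 2159, 2455 and 2059 against 3339, 3003 and 3561. Both of its probe sets had 0.57 (adjusted p = 0.0014 and 6.2e-04). Edem3 gave 2368, 2448 and 2704 against 3526, 3496 and 3585, a difference of 0.50 ± 0.07 (adjusted p = 7.8e-04). Its dimmer probe set had -0.04 (adjusted p = 0.94), and the average of both had 0.23 and did not pass (adjusted p = 0.099). In their brightest probe sets all 3 family members were thus higher on every pregnant array than on any non-pregnant one.

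Sel1l and Syvn1 encode the adaptor and the ubiquitin ligase (HRD1) of the main export complex. Sel1l gave 4563, 4536 and 4634 against 5433, 5643 and 5546. The replicates were close, and a difference of 0.27 ± 0.06 passed (adjusted p = 0.0083), although none of the 4 dimmer probe sets did, and the average of the 5 had 0.16 (adjusted p = 0.27). Syvn1 gave 2543, 2295 and 2474 against 2934, 2770 and 3445, with 0.32 ± 0.09 (adjusted p = 0.037). Pregnant replicate 3 was the highest, and without it the adjusted p was above the threshold, as it was without non-pregnant replicate 2 or 3 or pregnant replicate 1. The second Syvn1 probe set also passed (0.47, adjusted p = 0.0041).

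Derlins form part of the export channel. Derl3, which secretory cells induce in the UPR, gave 846.1, 817.2 and 904.5 against 1312, 1007 and 1312. Pregnant replicate 2 was lower than the other pregnant arrays but above all non-pregnant ones, and the difference was 0.48 ± 0.11 (adjusted p = 0.017). It did not pass without non-pregnant replicate 2 or pregnant replicate 1 or 3. Derl2 gave 5347, 5052 and 5152 against 6805, 6077 and 6537, a difference of 0.32 ± 0.06 (adjusted p = 0.0064). Its dimmer probe set had 0.19 and did not pass (adjusted p = 0.15). Derl1 had 0.11 in its brightest probe set (adjusted p = 0.28) and 0.25 to 0.27 in the other 3, of which 1 passed (adjusted p = 0.029). Herpud1, a ubiquitin-like partner of the ligase, gave 15692, 17304 and 15024 against 16248, 14781 and 14320, and its overlapping groups had -0.08 (interval -0.23 to 0.06).

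**Figure D2:**
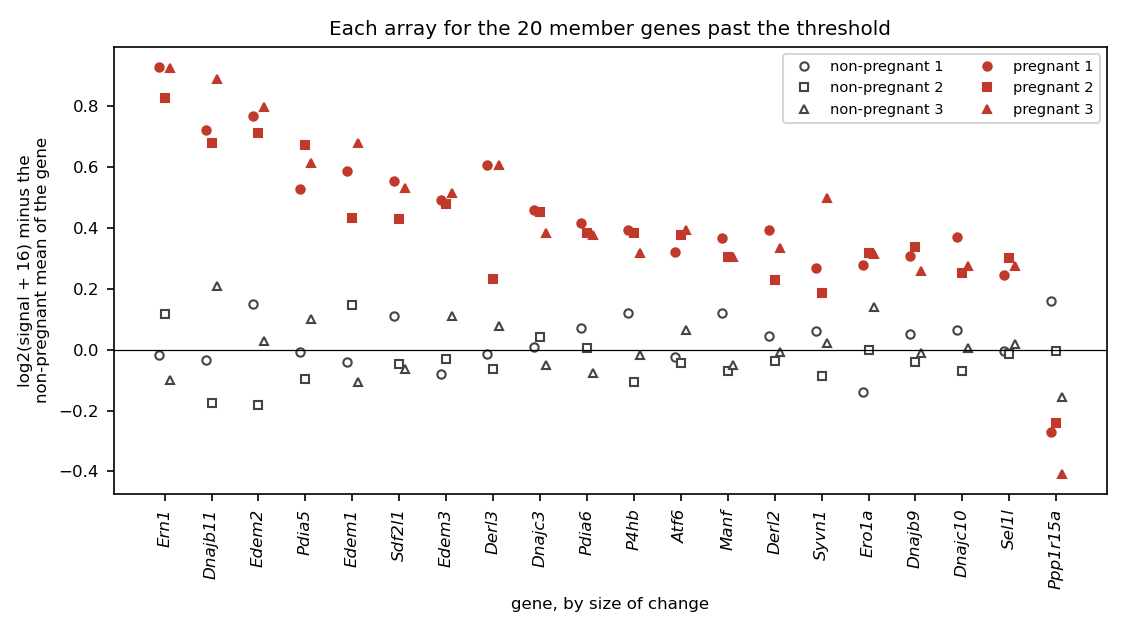
Each array's log2(signal + 16), minus the non-pregnant mean of the gene, for the 20 genes past the threshold, ordered by the size of the change; open symbols are non-pregnant and red symbols pregnant arrays, with 1 shape per replicate number. For all 19 genes that rose the red symbols lie above every open one, and for Ppp1r15a they lie below.

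In the ATF4-CHOP arm the transcription factors themselves did not pass. Atf4 gave 13150, 13488 and 11905 without and 13769, 13394 and 12672 with pregnancy, and the interval of the log2 difference was -0.08 to 0.18. Ddit3 (CHOP) gave 7051, 8125 and 6252 against 7573, 6613 and 6290, with an interval of -0.27 to 0.14. In both genes the groups overlap (adjusted p = 0.70 and 0.76).

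Trib3, a pseudokinase that CHOP and ATF4 induce, gave 614.8, 928.1 and 522.6 against 714.2, 519.8 and 635.2. Chac1, a glutathione-degrading enzyme of the same branch, gave 2467, 3611 and 1449 against 2346, 2501 and 2184. Non-pregnant replicate 2 was the highest and non-pregnant replicate 3 the lowest of its group for Ddit3, Trib3 and Chac1. For Chac1 the 3 pregnant arrays lay inside the non-pregnant range. The wide intervals, -0.51 to 0.29 for Trib3 and -0.51 to 0.50 for Chac1, leave room for changes as large as those of the chaperones. Without non-pregnant replicate 2 Trib3 had 0.12 and Chac1 0.31, and neither passed (adjusted p = 0.72 and 0.35).

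Ppp1r15a and Ppp1r15b encode GADD34 and CReP, which recruit the phosphatase that reverses the PERK signal, the first of them induced by stress. Ppp1r15a was the 1 member that was lower. It gave 3950, 3524 and 3172 without and 2925, 2989 and 2662 with pregnancy, a log2 difference of -0.31 ± 0.08 (adjusted p = 0.041). The call did not hold in 5 of the 6 fits that left out 1 array (all but that without non-pregnant replicate 3), nor with each array centred on its median. Ppp1r15b gave 2264, 2220 and 2003 against 1874, 1932 and 1885. Its groups were apart as well, but -0.19 ± 0.07 had an adjusted p of 0.15.

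Ero1a, the widely expressed oxidase that CHOP is known to induce, was higher in pregnancy. It gave 1749, 1927 and 2125 against 2339, 2405 and 2400, with 0.30 ± 0.08 (adjusted p = 0.034), and it passed with only 1 of the 6 arrays left out in turn, non-pregnant replicate 3. Neither dimmer Ero1a probe set passed, nor did the average of all 3 (0.23, adjusted p = 0.18). The median log2 difference was -0.06 over the 7 genes of this arm and 0.30 over the 27 folding, isomerase and ERAD genes. The difference between these medians was not tested. Without non-pregnant replicate 2 the first was 0.085 and without non-pregnant replicate 3 it was -0.24.

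**Figure D3:**
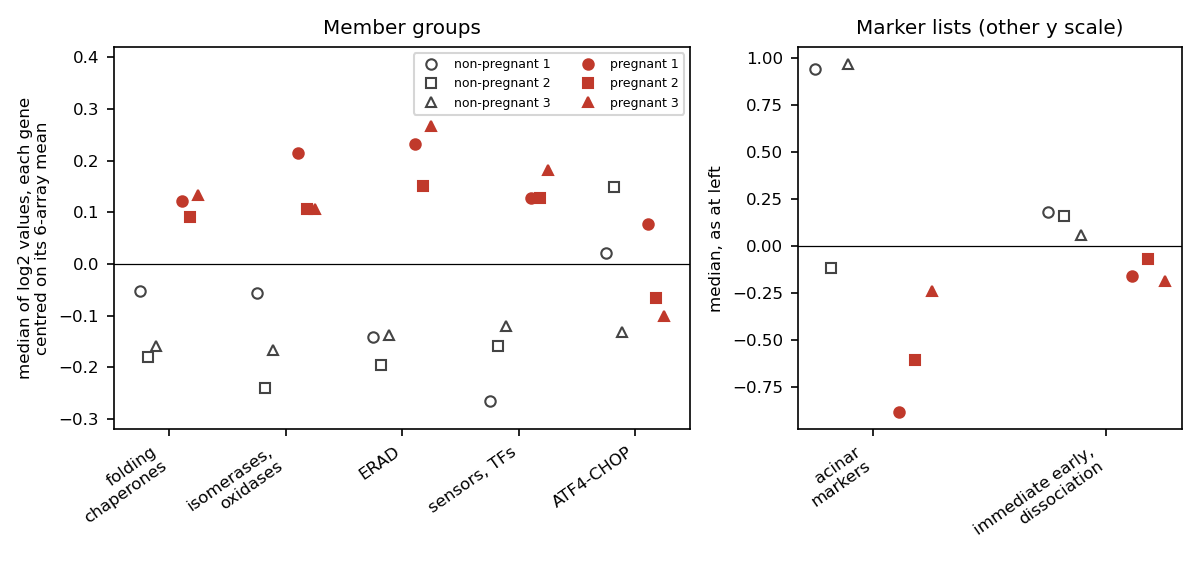
Median log2 value on each array, every gene centred on its mean over the 6 arrays, for the 5 groups of members (left) and for acinar and immediate early markers (right, on another scale). In the 4 groups other than ATF4-CHOP all pregnant arrays lie above 0 and all non-pregnant arrays below, the acinar markers lie lower on all pregnant arrays, and non-pregnant replicate 2 stands apart from the other non-pregnant arrays for them.

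Markers of other cells moved with pregnancy too. The summed signal of 10 beta cell markers ran from 181315 to 191565 without pregnancy and from 183486 to 187603 with it. Such a sum is weighted to its brightest probe sets, here that of Iapp. Of the 10 genes 2 were lower, Slc2a2 (-0.25) and Slc30a8 (-0.29). Acinar cells, the enzyme-secreting exocrine cells next to the islets, have a large ER of their own. Of 20 acinar markers tested 17 were lower in pregnancy and 0 higher, and the count was 7 without pregnant replicate 1 and 0 when the variance trend was dropped or robust eBayes was used. Their median log2 difference was -1.11, and -0.95 without pregnant replicate 1. Their summed signal (21 genes) ranged from 205000 to 384164 without pregnancy and from 120161 to 194137 with it. In bulk tissue fewer cells of a type and less RNA per cell cannot be told apart. On the non-pregnant arrays, in the order of their numbers, the acinar median was 0.94, -0.12 and 0.96, and on the pregnant arrays it was -0.89, -0.61 and -0.24. The median of the 27 folding, isomerase and ERAD genes was -0.08, -0.19 and -0.16 on the former and 0.20, 0.10 and 0.14 on the latter. Among the non-pregnant arrays this second median was lowest on replicate 2, the one with the lowest acinar markers. Among the pregnant arrays it was instead highest on the array with the lowest acinar markers, replicate 1. The 2 groups thus went opposite ways, and no relation within a group was tested. Of the other lists, 3 of 9 stellate and fibroblast markers, 2 of 9 markers of other endocrine cells and 1 of 8 endothelial markers were lower and none of them higher. In addition 1 of 10 macrophage and leukocyte markers was higher, namely C1qa (1.06), while C1qb (-0.17) and C1qc (-0.25) did not pass. Of 4 duct markers 1 was higher and 1 lower. Over all genes tested 6.1% were higher and 5.79% lower, and 9.87% and 8.96% among genes at least as bright as the dimmest member. Lists with 1 call thus say little. The part of all these cell types in the changes of the members was not tested further.

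With the acinar median as a covariate, the median log2 difference of these 27 genes was 0.35. Members that passed numbered 7, all among the 19, namely Dnajb11 (1.06), Edem2 (1.01), Pdia5 (0.76), Ern1 (0.74), Sdf2l1 (0.56), Edem3 (0.55) and P4hb (0.47). The covariate takes a degree of freedom and goes with the groups, and 522 probe sets passed in all, against 2587 without it. Of all genes tested 1.78% were higher in that fit. In the ATF4-CHOP arm the median was then -0.36, with Chac1 at -0.86, Trib3 at -0.76 and Ddit3 at -0.42 (adjusted p = 0.17, 0.14 and 0.097).

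**Figure D4:**
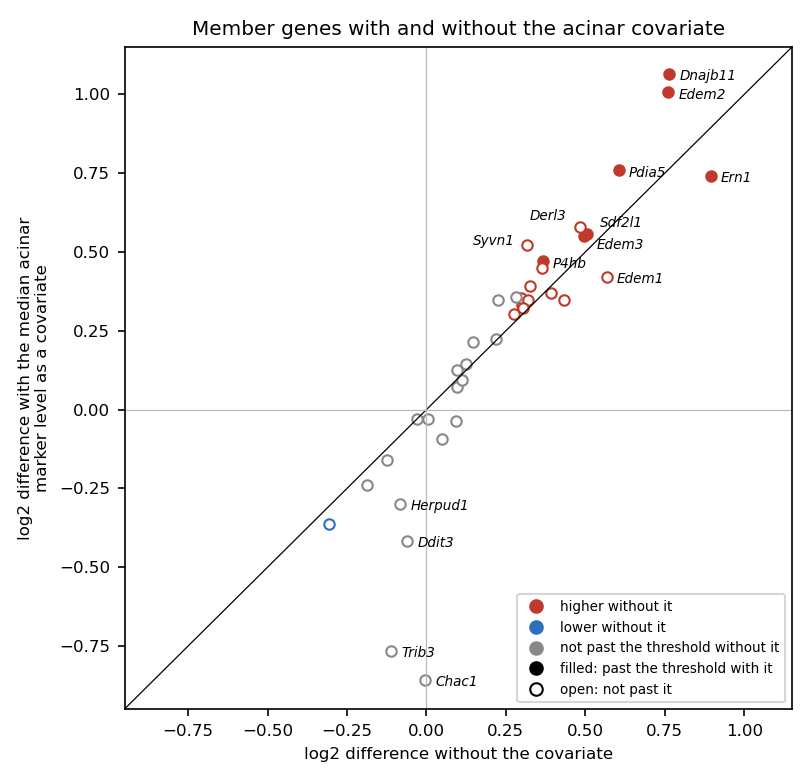
Log2 difference of each of the 38 genes without (horizontal) and with (vertical) the median acinar marker level as a covariate, with the line of equality; filled points passed with the covariate. The 19 genes in red stay above 0, and 7 of them are filled, whereas Chac1, Trib3 and Ddit3 fall well under the line.

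Immediate early and dissociation stress genes, which digestion of the pancreas can induce, were lower in pregnancy in 11 of 16 cases and higher in 0. Over all genes tested 5.79% were lower, and 8.96% among genes at least as bright as the dimmest member. The count of lower genes was 5 with pregnant replicate 3 left out, 6 with pregnant replicate 1 left out and 7 with non-pregnant replicate 2 left out. It was 4 with each array centred on its median, 1 with the acinar covariate and 0 without the variance trend. Their median was 0.18, 0.16 and 0.06 on the non-pregnant and -0.16, -0.07 and -0.19 on the pregnant arrays. Ppp1r15a, itself known as an early stress-induced gene, moved in the same direction. The part of this in its fall was not tested.

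Other genes of the pathway were taken from lists of further ER folding, ERAD, UPR and ATF4 target genes. Over all genes tested 6.1% were higher and 5.79% lower. Of 29 other folding genes tested, 11 were higher and 4 lower, with a median log2 difference of 0.25. Higher were Erp29 (0.84 ± 0.07, adjusted p = 1.0e-05), an isomerase-like chaperone, the prolyl isomerases Fkbp11 (1.03) and Ppib (0.71), and Hspa13 (0.58), a relative of BiP. Lower were Fkbp7 (-0.58), the pancreatic isomerase Pdia2 (-1.75), Tmx4 (-0.26) and Fkbp9 (-0.18). There were 4 higher and 0 lower both without the variance trend and with the acinar covariate, and 1 and 2 lower without pregnant replicates 1 and 2. Pdia2 is known as an isomerase of acinar cells, whose markers fell too, and it had its lowest non-pregnant signal on replicate 2 (960.5, against 2797 and 3082). The part of acinar cells in its fall was not tested.

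Of 22 other ERAD genes 8 were higher and 0 lower, with a median of 0.17. Among them were Selenos (0.36), which links the ATPase Vcp to the ER membrane, the ubiquitin-conjugating enzyme Ube2j1 (0.37), the lectin Os9 (0.49) and Vcp itself (0.23). The count was 2 without pregnant replicate 1, 5 without pregnant replicate 2, and 3 without either non-pregnant replicate 2 or pregnant replicate 3. It was 2 with the acinar covariate and 0 without the variance trend.

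Of 21 other UPR regulators 3 were higher (14.3%) and 2 lower, with a median of 0.03. Among genes at least as bright as the dimmest member 9.87% were higher and 8.96% lower, so both counts lie near these shares. Bhlha15 (MIST1), a transcription factor of secretory cells, acinar cells among them, that XBP1 is known to induce, had 1.18 ± 0.09 (adjusted p = 8.6e-06). It rose while most acinar markers fell, and the cause was not tested. Wfs1, the ER membrane protein lost in Wolfram syndrome, had 0.48 ± 0.06 and the ER-anchored factor Creb3 0.43 ± 0.09. Crebrf (-0.47) and the kinase Map3k5 (-0.43) were lower. The count of lower genes was 0 without non-pregnant replicate 2 or pregnant replicate 1, and 1 without non-pregnant replicate 1 or pregnant replicate 2 or 3. In the fits without the trend and with the covariate, 2 genes rose and 0 fell.

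Of 26 other ATF4 targets 7 were higher and 2 lower, with a median of 0.03. Nupr1, a stress-induced chromatin protein, had 0.91 ± 0.06 (adjusted p = 3.6e-06), Aldh18a1, which starts proline synthesis, 0.52 ± 0.06, and the tRNA synthetases Nars and Gars 0.39 and 0.32. Ddit4, an inhibitor of mTORC1, had -0.53 ± 0.06 (adjusted p = 2.2e-04) and the receptor Vldlr -0.40 ± 0.09. Among genes at least as bright as the dimmest member 9.87% were higher and 8.96% lower, so the count of lower genes lies near that share. Without the variance trend 3 were higher and 1 lower, and with the acinar covariate 1 and 1. There was 1 lower gene without non-pregnant replicate 1 or pregnant replicate 1 or 2.

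Genes that rose were found both with and without an ERSE or ERSE-II match. Of the 12 folding, isomerase and ERAD genes with a match 5 were higher, with a median log2 difference of 0.14, and of the 12 without a match 10 were higher, with a median of 0.34. The largest differences were alike, 0.76 for Dnajb11 with a match and 0.76 for Edem2 without, and the difference between the sets was not tested. Those with a match also had brighter probe sets, with median signals of 14903 and 4404. Over the 27 genes of these groups, signal and log2 difference had a Spearman correlation of -0.57, given as a description across genes that share the same 6 arrays. The median signal was 4404 for the 16 that rose and 18218 for the 11 that did not pass. Whether brightness, the match or neither goes with the change was not tested.

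**Figure D5:**
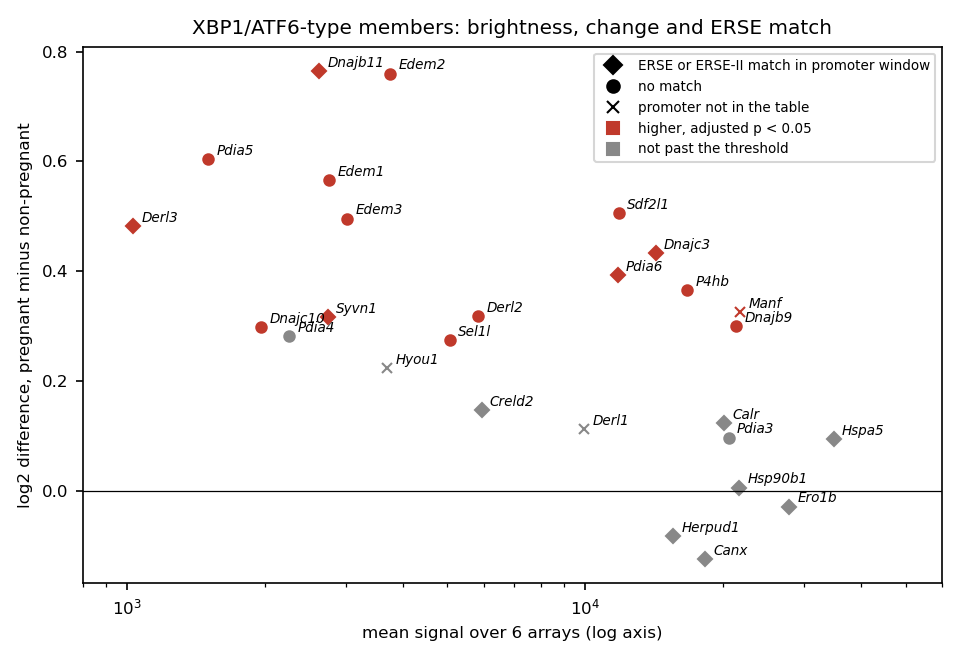
Mean signal over the 6 arrays (log axis) against the log2 difference for the 27 folding, isomerase and ERAD genes, with diamonds for an ERSE or ERSE-II match, circles for none and crosses for genes without a window in the table; red genes were higher. Of the brightest genes Hspa5, Ero1b, Hsp90b1, Pdia3, Calr and Canx lie near 0, while Manf and Dnajb9 at similar signals were higher.

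Of the 48 tested probe sets that did not represent their gene, 11 were higher and 0 lower. Over all probe sets tested 9.57% passed in either direction. No member thus had probe sets that passed in opposite directions. In Edem2 (-0.55), Pdia6 (-0.14), Edem3 (-0.04) and Sel1l (-0.03), which rose, a dimmer probe set pointed down but did not pass. Of 12 members that rose and had several tested probe sets, 4 had a second one that rose, namely Dnajc3, Edem1, Syvn1 and Ern1. Of those that did not pass, Hyou1, Calr and Derl1 had another probe set that rose. With the probe sets of each gene averaged 16 members were higher, 13 of them among the 19.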

How the data were processed

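Each array held cRNA made from 100 ng of islet RNA, per the labels' protocols. The deposited values are MAS5 signals (intensities on a linear scale), per the submitters' processing notes, with settings not given in the sources used here. The 2% trimmed mean was 500.003 on all arrays, so no further normalization was applied. The 64 control probe sets were left out. Values were taken as log2(signal + 16), and the 27022 probe sets in the top 60% by mean were tested with limma 3.58.1 in R 4.3.3 (lmFit, eBayes with a variance trend, 2-sided, 4 residual degrees of freedom, Benjamini-Hochberg over all probe sets, threshold 0.05). Errors of log2 differences are standard errors. The number of arrays limits the precision. The fit was tested on simulated data drawn with the same variance trend, so that test could not check the trend itself.

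Gene names came from the platform annotation (34958 probe sets with a single symbol, 932 with several, 9211 unnamed), checked through RefSeq Entrez identifiers. Promoter windows came from RefSeq (GRCm38.p6). All members were named, and of the other pathway lists up to 4 genes with the smallest p in each direction. Members, lists, motifs and alternatives were chosen with earlier results of these data known. Alternatives were pseudocounts of 1 and 64, quantile normalization, median centring, no filter or a top 40% filter, no variance trend, robust eBayes, weights for arrays, a block for the replicate number, averaged probe sets, the acinar covariate, Ero1a counted with the oxidases and each array left out. Python 3.11.15 with matplotlib 3.10.9 drew the figures.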

Additional observations from a re-analysis of the deposited data

How the results depend on the processing

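The 19 members that rose kept a positive log2 difference under all 18 alternatives tried, the lowest being 0.10, but 2 of them, Dnajb11 and Pdia5, passed the threshold under every one. Without the variance trend 4 members were higher and 0 lower, and 603 probe sets passed in all. Adding the acinar covariate, which takes a degree of freedom, left 7 higher and 0 lower and 522 probe sets in all, and the ATF4-CHOP median was -0.36. Other causes were not tested. With averaged probe sets 1473 genes passed in all, from fewer features tested. Median centring gave a median of 0.38 for the 27 folding, isomerase and ERAD genes, with 0 members lower, and turned the split of all probe sets from 1294 higher and 1293 lower to 1430 and 583. With no filter 0 members were lower. With each array left out, 15 to 20 members were higher and 0 to 1 lower, 1488 to 2247 probe sets passed, the median of the 27 genes was 0.27 to 0.34 and that of the ATF4-CHOP arm -0.24 to 0.085. Counting Ero1a with the oxidases moved both medians by less than the spread between replicates.

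Genes that changed sign had not passed in any setting. Averaged probe sets gave Hspa5 -0.030 and Hsp90b1 -0.054, and the acinar covariate Hspa5 -0.037, Hsp90b1 -0.031 and Atf4 -0.094. Ero1b had 0.011 with quantile normalization, and median centring gave Ero1b 0.047, Ddit3 0.014 and Chac1 0.072. Array weights gave Chac1 0.039. With arrays left out in turn the ranges were -0.017 to 0.024 for Hsp90b1, -0.0052 to 0.085 for Atf4, -0.15 to 0.035 for Ddit3, -0.28 to 0.12 for Trib3 and -0.35 to 0.31 for Chac1. The cause was not tested.

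Replicate numbers are shared between the groups, but the deviations of same-numbered arrays correlated at -0.03, -0.07 and 0.03, and non-pregnant replicate 1 went best with pregnant replicate 2, so the numbers were not taken to pair the samples. With the replicate block 20 members were higher, the 19 and Pdia4 (0.28, adjusted p = 0.041), and 1 lower.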

Other observations

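Of 4 heat shock genes of the cytosol, 3 were lower in pregnancy. They belong to the list of immediate early and dissociation stress genes and were singled out after their values were seen. Most of that list was lower, so this count is not a separate result. Over all genes tested 5.79% were lower, and 8.96% among genes at least as bright as the dimmest member. Dnajb1, the main inducible DnaJ partner of cytosolic HSP70, gave signals of 36015, 36617 and 34005 on the non-pregnant and 27369, 25463 and 26879 on the pregnant arrays. Its groups did not overlap, and the log2 difference was -0.42 ± 0.05 (limma adjusted p = 2.8e-04). The HSP110 gene Hsph1 had -0.36 ± 0.07 (adjusted p = 0.0091) and the inducible HSP70 gene Hspa1a -0.25 ± 0.05 (adjusted p = 0.014). The near-identical Hspa1b had -0.14 ± 0.07 and did not pass (adjusted p = 0.23), and probes for these copies may share transcripts. Of the 16 genes in that list 11 were lower, 4 with each array centred on its median, 1 with the acinar covariate and 0 without the variance trend.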
